A study of Bos taurus with 6 samples.

Results

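The cholesterol and fatty acid synthesis genes were followed in primary bovine aortic endothelial cells left untreated or given TGF-beta 1. The list named 32 enzymes, regulators and carriers of these pathways, of which 23 belong to the sterol branch and 9 to the fatty acid branch. A gene was taken from the array by its annotated symbol, and where several probe sets carried that symbol, the one with the highest mean of the 6 arrays stood for the gene. In this way 27 of the 32 genes were measured, 19 of the sterol branch and 8 of the fatty acid branch, out of 9155 genes with a single symbol on the array. IDI1, HSD17B7, SC5D, STARD4 and FADS1 were not analysed here. The cells were isolated from bovine aorta with collagenase and grown in RPMI medium. The treated group received 5 ng/ml TGF-beta 1, a cytokine, for 24 hours, and the basal group received nothing. RNA of 3 basal and 3 treated cultures was hybridised to 1 Affymetrix array each, and the labels name no genetic change in either group. The labels speak of triplicates from different cultures and name no animal, so p-values measure the spread between these arrays, which may be in part technical.

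Cells build cholesterol from acetyl-CoA. The mevalonate steps make isoprene units, squalene synthase and its successors close these into lanosterol, and a chain of demethylating, isomerising and reducing enzymes turns lanosterol into cholesterol. Fatty acids start from the same acetyl-CoA, which is carboxylated, polymerised to palmitate, elongated and desaturated. Both branches are controlled by the SREBP transcription factors. SREBF2 encodes the form that mainly drives sterol genes and SREBF1 the form that mainly drives fatty acid genes. When sterols are scarce, SCAP escorts these proteins out of the endoplasmic reticulum, and when sterols are plentiful, the INSIG proteins hold them there.

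Values are log2 expression from RMA, a method that corrects background, equalises the arrays and summarises the probes of a set, so a difference of 1 is a doubling. Array medians lay between 5.88 and 5.92 and the 25th percentile of all values was 4.55. Precision is limited by having 3 arrays a group. Of the 6 endothelial markers, 5 had means above the median of all values, among them PECAM1 and CDH5, while KDR lay at 5.14 in basal arrays, below that median. The mean over the 6 endothelial markers ran from 9.28 to 9.58 in basal and from 8.98 to 9.06 in treated arrays, and 4 of the 6 were lower in every treated array than in every basal array, against 15.1% of all genes. For the 5 smooth muscle markers the same mean ran from 6.81 to 6.92 and from 7.22 to 7.37. Of these, TAGLN alone was higher in every treated array, against 8.18% of all genes, with a log2 change of 2.19. The other 4 overlapped between the groups, with log2 changes from -0.26 to 0.20. Fibroblast (5 of 5 measured, 6.24 to 6.43 against 6.25 to 6.29), leukocyte (4 of 4, 4.76 to 4.95 against 4.82 to 5.04) and adipocyte markers (3 of 4, 4.78 to 4.99 against 4.71 to 4.86) overlapped between the groups. The part of the endothelial and smooth muscle differences in the results below was not tested, and in bulk RNA fewer cells of a type and less RNA per cell cannot be told apart.

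The arrays also differed in a way the labels do not explain. On the first principal component over all probe sets, which held 63.4% of the variance, basal 1, basal 2 and TGFB1 1 lay between -67.8 and -10.3, and basal 3, TGFB1 2 and TGFB1 3 between 36 and 41.4. These are called the first and the second array set below. The labels give no date, slide or batch for them. Since basal 3 lay apart from the other basal arrays there, differences are also given within each array set.

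Setting treated against basal cultures asked what the cytokine does to the expression of these genes. Of the 27 measured genes 2 fell and none rose at a limma adjusted p under 0.05, against 1.16% of all 9155 genes that fell and 0.557% that rose. The 2 were FDFT1, the squalene synthase, and EBP, the sterol isomerase. At an unadjusted limma p under 0.05, 9 of the 27 were lower and 0 higher, against 11.4% and 6% of all genes. The log2 change lay below 0 in 23 of 27 (55.6% of all genes), with a median of -0.49 over the 19 sterol genes and -0.42 over the 8 fatty acid genes, beside -0.03 over all genes. All 3 treated arrays lay below all 3 basal arrays for 9 of the 27 genes, 8 of them sterol enzymes, against 15.1% of all genes, and above them for 1 gene, CYP51A1, against 8.18%. An exact permutation test of a single gene cannot give a two-sided p below 0.1 with 3 arrays against 3.

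**Figure D1:**
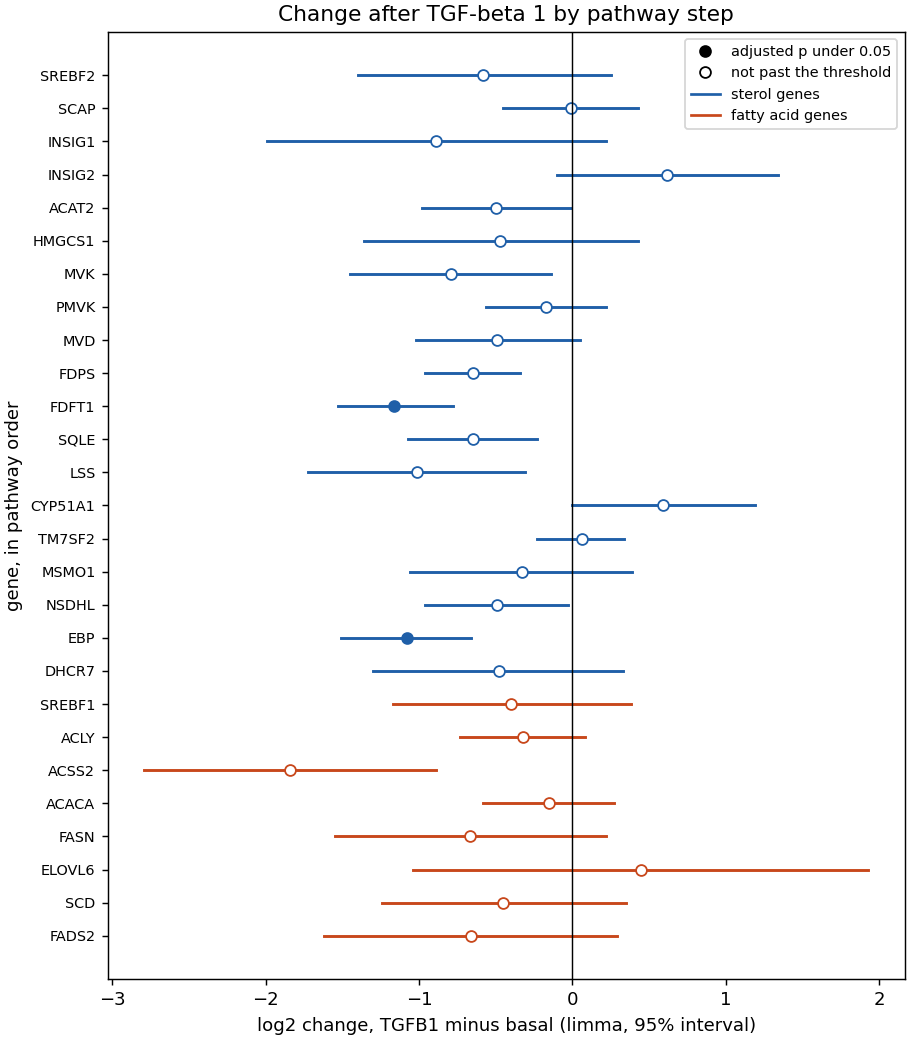
Log2 change (TGFB1 minus basal, limma estimate with its 95% interval, n = 3 arrays each) of the 27 genes in pathway order, sterol genes in blue and fatty acid genes in red; filled points passed the adjusted threshold of 0.05. The estimates of 23 genes lie left of 0, FDFT1 and EBP are the filled points, and CYP51A1 at 0.59 and INSIG2 at 0.62 lie farthest to the right.

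From farnesyl units to lanosterol all 3 measured enzymes were lower in every treated array than in every basal array, against 15.1% of all genes. FDFT1 (Entrez gene 281767) joins farnesyl units into squalene and so commits them to sterols. It stood at 9.62, 9.39 and 9.15 log2 in basal 1 to basal 3 and at 8.30, 8.08 and 8.31 in TGFB1 1 to TGFB1 3. The groups were apart by more than the spread within either, and the gene fell 2.23-fold (95% interval 1.72 to 2.90, log2 change -1.16, SE 0.16, limma adjusted p = 0.0371), the 123rd lowest change of 9155 genes. Within the first array set the difference was -1.21 and within the second -0.95. Of its other probe sets, that with a mean of 8.74 stood at -1.36 (SE 0.24) with the groups apart, and that with a mean of 3.94, below the 25th percentile of all values, at 0.03. The call ended when any array but basal 3 was left out, with limma adjusted p from 0.109 to 0.192. In those fits 0 to 8 of all 9155 genes passed. It also ended with the replicate number as a second term (limma adjusted p = 0.0801), where 0 genes passed.

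SQLE, the squalene epoxidase that adds the first oxygen, stood at 10.51, 10.72 and 10.40 in basal arrays and at 10.20, 9.68 and 9.79 in treated arrays. Its groups did not overlap, and the log2 change was -0.65 (95% interval -1.07 to -0.23), which did not pass (limma adjusted p = 0.129). LSS, which folds squalene epoxide into lanosterol, stood at 8.73, 8.52 and 7.73 in basal and at 7.60, 7.07 and 7.28 in treated arrays. Basal 3 lay just above the highest treated array, and the log2 change was -1.01 (95% interval -1.72 to -0.31, limma adjusted p = 0.149). The other LSS probe sets stood at -0.56 and 0.00. In all 3 enzymes of this stretch every treated array lay below every basal array of its own set, in both sets, against 25.2% of all genes. The log2 differences ran from -1.21 to -0.41 in the first set and from -0.95 to -0.56 in the second.

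**Figure D2:**
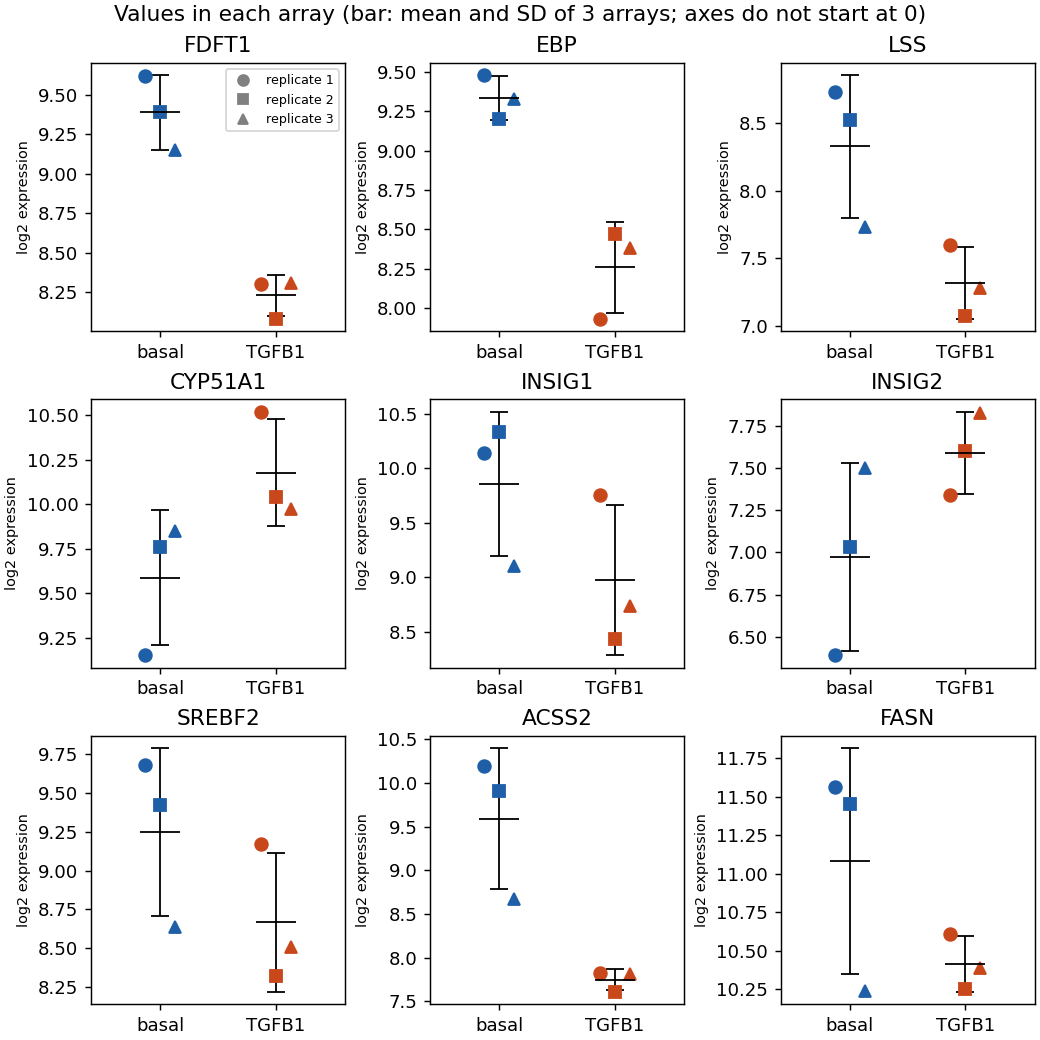
Log2 expression of 9 genes in each array (points, shaped by replicate number), with the mean and SD of the 3 arrays of a group; the axes do not start at 0. In FDFT1, EBP, LSS and ACSS2 every treated array lies below every basal array, in CYP51A1 every treated array lies above, and in SREBF2, INSIG1 and FASN the array basal 3 lies near the treated arrays.

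The mevalonate steps, which lead up to farnesyl units, were all below 0, against 55.6% of all genes. None of the 6 measured genes passed. Their log2 changes ran from -0.79 to -0.17 with a median of -0.49. FDPS, which makes farnesyl diphosphate, came nearest. It stood at 10.06, 9.94 and 9.71 in basal and at 9.32, 9.27 and 9.17 in treated arrays, with the groups apart and a log2 change of -0.65 (SE 0.13, limma adjusted p = 0.073). With the array set as a second term in the fit, a term chosen with the array split known, FDPS passed at -0.59 (limma adjusted p = 0.0229). Since the split was read from these same values, p-values of the fit with that term may be too small.

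MVK, the mevalonate kinase, had the largest difference of these steps, with 8.94, 8.71 and 7.98 in basal and 7.98, 7.72 and 7.56 in treated arrays. TGFB1 1 came within rounding of basal 3, and the log2 change was -0.79 (95% interval -1.45 to -0.14, limma adjusted p = 0.209). Its other probe sets stood at -1.22 and -0.26. ACAT2, the thiolase that condenses acetyl-CoA, stood at 9.82, 9.30 and 9.08 in basal arrays and between 8.84 and 8.93 in treated arrays, a log2 change of -0.50 (95% interval -0.98 to -0.01, limma adjusted p = 0.275). Its treated arrays varied little (SD 0.05) and its basal arrays far more (SD 0.38).

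HMGCS1, which makes the precursor of mevalonate, had groups that overlapped. It stood at 12.08, 12 and 10.94 in basal and at 11.62, 10.77 and 11.23 in treated arrays, so basal 3 lay inside the treated range. The log2 change of -0.47 had an interval from -1.36 to 0.43 (limma adjusted p = 0.582), and within the second array set the difference was 0.06. The decarboxylase MVD stood at -0.49 (limma adjusted p = 0.332) and the kinase PMVK at -0.17 (limma adjusted p = 0.65), with basal 3 at 7.0 and 6.92, at or inside the edge of the treated values.

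From lanosterol to cholesterol the genes went different ways. EBP (Entrez gene 515569), which shifts a double bond of the sterol ring, stood at 9.48, 9.20 and 9.33 in basal and at 7.93, 8.47 and 8.38 in treated arrays. The gap between the groups exceeded the range within each, and EBP fell 2.12-fold (95% interval 1.58 to 2.84, log2 change -1.08, SE 0.17, limma adjusted p = 0.0469). Basal 3 did not stand apart in this gene, at -0.01 from the mean of the other basal arrays, and the difference between the groups was -1.42 in the first array set and -0.91 in the second. The call ended when any array but basal 3 was left out (limma adjusted p from 0.101 to 0.203), and under limma-trend (limma adjusted p = 0.0641) or with all probe sets in the fit (limma adjusted p = 0.0651).

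CYP51A1, the cytochrome that removes a methyl group from lanosterol, was the 1 gene of the list that was higher in every treated array. It stood at 9.15, 9.76 and 9.85 in basal and at 10.52, 10.04 and 9.97 in treated arrays, a log2 change of 0.59 (SE 0.24) that did not pass (limma adjusted p = 0.289). Most of that difference lay in the first array set, at 1.07, against 0.15 in the second. MSMO1, which oxidises the next methyl groups, stood at 10.00, 10.77 and 11.15 in basal and at 10.12, 10.36 and 10.44 in treated arrays. Its groups overlapped, with basal 1 the lowest and basal 3 the highest of all arrays (log2 change -0.33, limma adjusted p = 0.63).

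NSDHL, a dehydrogenase of the same demethylation, stood at 9.50, 9.30 and 8.81 in basal and between 8.64 and 8.74 in treated arrays. Its groups were just apart, and the log2 change was -0.49 (95% interval -0.96 to -0.03, limma adjusted p = 0.256). DHCR7, the reductase that ends the pathway, stood at 9.24, 8.97 and 8.06 in basal and at 8.62, 8.10 and 8.09 in treated arrays, with basal 3 below every treated array (log2 change -0.48, limma adjusted p = 0.53). TM7SF2, a sterol reductase, lay between 4.73 and 4.95 in all arrays, near the 25th percentile of all values, and stood at 0.06 (SE 0.12), and RMA gives no call of whether such a level is above background.

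The regulators did not pass in either direction. SREBF2 stood at 9.68, 9.42 and 8.64 in basal and at 9.17, 8.32 and 8.51 in treated arrays, a log2 change of -0.58 (95% interval -1.40 to 0.25, limma adjusted p = 0.456). Basal 3 lay inside the treated range and TGFB1 1 above basal 3, and within the array sets the differences were -0.37 and -0.22. SCAP stood between 6.27 and 6.76 in basal and between 6.34 and 6.78 in treated arrays, a change of -0.01 (95% interval -0.45 to 0.43).

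The INSIG genes stood on opposite sides of 0. INSIG1, itself a known SREBP target, stood at 10.14, 10.33 and 9.10 in basal and at 9.75, 8.43 and 8.74 in treated arrays, a log2 change of -0.89 (95% interval -1.99 to 0.22, limma adjusted p = 0.393). The difference was -0.48 in the first array set and -0.52 in the second, and with the array set in the fit it stood at -0.50 (limma adjusted p = 0.0591). INSIG2 stood at 6.39, 7.03 and 7.50 in basal and at 7.34, 7.60 and 7.83 in treated arrays, a log2 change of 0.62 (95% interval -0.10 to 1.34, limma adjusted p = 0.359). Basal 3 lay between TGFB1 1 and TGFB1 2, and the differences were 0.63 and 0.22 within the array sets. All 3 INSIG2 probe sets stood above 0, the others at 0.66 and 0.79.

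None of the 8 fatty acid genes passed by limma, and 1 of them had an unadjusted p under 0.05, a share near the 11.4% of all genes. That gene was ACSS2, which makes acetyl-CoA from acetate. It stood at 10.19, 9.91 and 8.67 in basal and at 7.82, 7.61 and 7.81 in treated arrays. Every treated array lay below every basal array, and the treated arrays varied far less (SD 0.12) than the basal ones (SD 0.81). The estimate was a 3.58-fold difference (95% interval 1.85 to 6.93, log2 change -1.84, SE 0.39), the largest of the list and the 24th lowest of 9155 genes, with a limma adjusted p = 0.0862. The difference was -2.22 in the first array set and -0.96 in the second, and ACSS2 passed with the array set in the fit (-1.59, limma adjusted p = 0.0225). ACLY, which makes acetyl-CoA from citrate, stood at 11.40, 11.03 and 10.81 in basal and between 10.71 and 10.83 in treated arrays, a change of -0.32 (95% interval -0.73 to 0.08) that did not pass.

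In FASN and SREBF1, and in the probe set that stood for ACACA, basal 3 did not stand with the other basal arrays. FASN, which builds palmitate, stood at 11.56, 11.45 and 10.24 in basal and at 10.61, 10.25 and 10.39 in treated arrays. Basal 3 was the lowest of all 6 arrays, and the log2 change of -0.67 had an interval from -1.55 to 0.22 (limma adjusted p = 0.421), with -0.90 in the first array set and 0.08 in the second. ACACA, the carboxylase that feeds FASN, lay between 6.44 and 6.95 in all arrays (log2 change -0.15, 95% interval -0.58 to 0.27). The other ACACA probe set stood at -0.27, and there basal 3, at 5.57, lay between basal 1 at 5.52 and basal 2 at 6.21. SREBF1 stood at 9.44, 9.43 and 8.39 in basal and at 8.94, 8.44 and 8.69 in treated arrays, again with basal 3 the lowest of all. Its log2 change was -0.40 (95% interval -1.17 to 0.38, limma adjusted p = 0.588), and within the array sets -0.50 and 0.18. The other 3 SREBF1 probe sets stood between -0.56 and -0.15.

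Among the elongase and desaturases, SCD, which makes monounsaturated fatty acids, stood at 11.60, 11.38 and 10.50 in basal and at 11.09, 10.42 and 10.62 in treated arrays (log2 change -0.45, 95% interval -1.24 to 0.35). FADS2, a desaturase of polyunsaturated fatty acids, stood at 7.66, 7.41 and 6.43 in basal and at 7.0, 6.51 and 6.0 in treated arrays (log2 change -0.66, 95% interval -1.62 to 0.29). In both genes basal 3 lay inside the treated range. ELOVL6, which elongates palmitate, was the 1 fatty acid gene above 0, at 0.45 (95% interval -1.04 to 1.93). It stood at 4.31, 4.82 and 6.07 in basal and at 4.45, 6.07 and 6.03 in treated arrays, so it was high in the second array set and low in the first whatever the treatment, and with the array set in the fit it stood at -0.07.

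**Figure D3:**
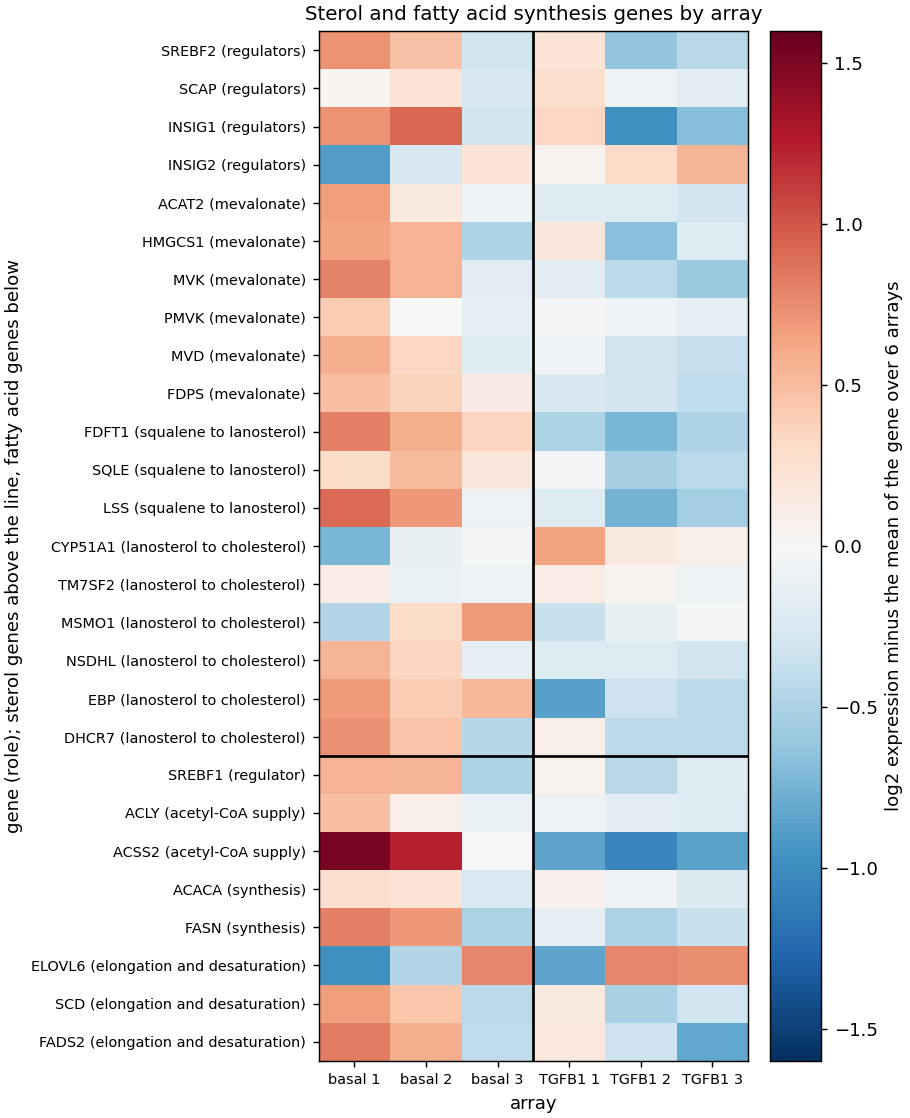
Log2 expression of each of the 27 genes in each array minus the mean of the gene over the 6 arrays (colour), sterol genes above the black line and fatty acid genes below it. Most rows are high in basal 1 and basal 2, FDFT1 and EBP stay above their mean in basal 3 while FASN, SCD, SREBF1 and DHCR7 lie below it there, and CYP51A1 and INSIG2 run the other way.

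Over the 19 sterol genes the median deviation from the gene's mean was 0.58 in basal 1, 0.36 in basal 2 and -0.09 in basal 3, and -0.03, -0.31 and -0.36 in TGFB1 1 to TGFB1 3. Over the 8 fatty acid genes it was 0.61, 0.49 and -0.33 in basal arrays and -0.02, -0.39 and -0.27 in treated arrays. In these medians basal 3 lay below every other basal array, above TGFB1 2 and TGFB1 3 for the sterol genes, and below TGFB1 1 and TGFB1 3 for the fatty acid genes. In 21 of the 27 genes basal 3 was nearer to the treated mean than to the mean of basal 1 and basal 2, against 67.8% of all genes. This held for 8 of 8 fatty acid genes and 13 of 19 sterol genes, the latter at 68.4% near the share of all genes. The sterol exceptions were FDPS, FDFT1, SQLE, TM7SF2, MSMO1 and EBP. TGFB1 2 and TGFB1 3 share the second array set with basal 3, so a gene that differs by array set alone also counts here. The difference between the branches was not tested.

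Within the first array set 23 of the 27 genes were lower in TGFB1 1 than in the mean of basal 1 and basal 2, against 51.3% of all genes. Within the second, 16 of 27 were lower in the mean of TGFB1 2 and TGFB1 3 than in basal 3, near the 54.7% of all genes. In 13 of 27 genes every treated array lay below every basal array of its own set, in both sets, against 25.2% of all genes. These were 11 of the 19 sterol genes (SREBF2, INSIG1, ACAT2, MVK, MVD, FDPS, FDFT1, SQLE, LSS, NSDHL and EBP) and 2 of the 8 fatty acid genes (ACLY and ACSS2). With the array set as a term in the fit, 6 of 27 were lower at a limma adjusted p under 0.05, against 5.57% of all genes, and none higher, against 4.01%. They were FDFT1 (limma adjusted p = 0.00948), EBP (0.0111), ACSS2 (0.0225), FDPS (0.0229), LSS (0.0255) and SQLE (0.0395). The array sets were read from these same values, so p-values of the fit with that term may be too small. Of all genes 877 passed with the term and 157 without it. Without basal 3, 11 of 27 were lower and none higher, against 11.1% of all genes lower and 5.69% higher. The 11 were MVK, MVD, FDPS, FDFT1, LSS, NSDHL, EBP, DHCR7, SREBF1, ACSS2 and FASN. That fit sets basal arrays of the first array set alone against treated arrays of both sets, so treatment and array set are partly confounded in it.

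**Figure D4:**
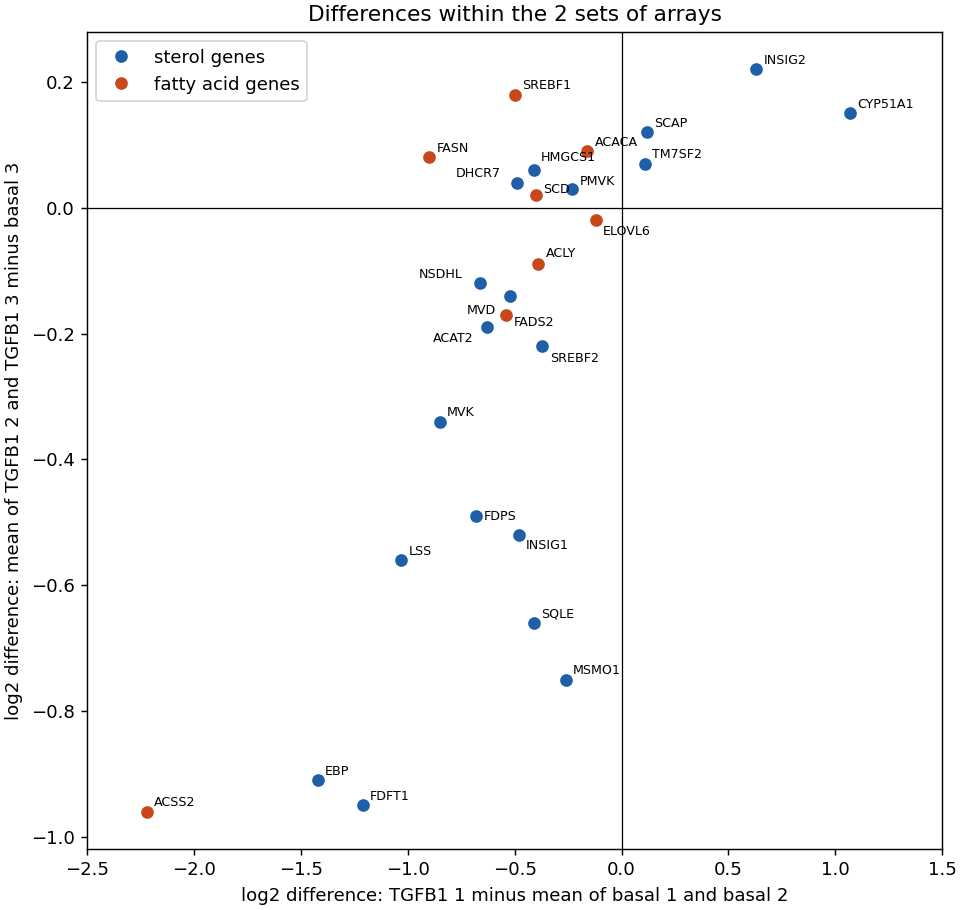
Log2 differences of the 27 genes within the first array set (x axis, TGFB1 1 minus the mean of basal 1 and basal 2) and the second (y axis, mean of TGFB1 2 and TGFB1 3 minus basal 3), with sterol genes in blue and fatty acid genes in red. ACSS2, EBP and FDFT1 lie at the lower left, FASN and SREBF1 lie left of 0 and above 0, and CYP51A1 and INSIG2 lie at the upper right.

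Other genes of sterol handling did not pass by limma with group as the only term. Of 14 measured (18 listed), 8 were below 0 and 6 above, with a median of -0.06, and 4 were lower and 0 higher at an unadjusted p under 0.05, where all genes gave 11.4% and 6%. With the array set in the fit 2 of the 14 passed, both lower, against 5.57% of all genes. They were ERLIN2 at -0.54 (limma adjusted p = 0.0485) and the lysosomal lipase LIPA, named after its value was seen, at -0.69 (limma adjusted p = 0.0322). In the fit without that term ERLIN2, which helps degrade sterol-sensing proteins of the endoplasmic reticulum, stood at -0.55 (SE 0.12, limma adjusted p = 0.0941). MYLIP, a ubiquitin ligase of lipoprotein receptors, stood at -0.87 (SE 0.20, limma adjusted p = 0.0996). NR1H3, the sterol-sensing receptor LXR alpha that activates MYLIP, was picked out after its value was seen and stood at -1.27 (SE 0.31, limma adjusted p = 0.111). Of 18 other genes of fatty acid and glycerolipid metabolism (22 listed) none passed by limma, 11 were below 0 and 7 above, and 3 were higher and 2 lower at an unadjusted p under 0.05, the latter a share near the 11.4% of all genes. The fatty acyl-CoA synthetase ACSL5 stood at 0.66 (SE 0.13, limma adjusted p = 0.0789). The malic enzyme ME1, a source of NADPH for fatty acid synthesis, stood at 0.72 (SE 0.16, limma adjusted p = 0.0914). With the array set in the fit both passed, ACSL5 at 0.71 (limma adjusted p = 0.0208) and ME1 at 0.78 (limma adjusted p = 0.027). They were the 2 of the 18 that did, both higher, against 4.01% of all genes.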

How the data were processed

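The deposited table held log2 expression of 24128 probe sets in 6 arrays, which the authors made by RMA in affy (version not given) according to the submitters' processing notes. All 6 columns were assigned by label. After 112 control probe sets were kept out, 13292 of 24016 had 1 symbol in the array annotation, 86 several and 10638 none. For 13263 of these the gene identifier was found in the ARS-UCD2.0 gene table of RefSeq, used for names only, and 0 symbols changed. The test was limma's (version 3.58.1, R 4.3.3; lmFit and eBayes with group as sole term, 4 residual and 2.14 prior degrees of freedom) over 9155 genes, with two-sided p-values adjusted by Benjamini-Hochberg over all genes. Intervals are 95% intervals of that fit. The fit was tested on simulated data with independent noise in each array. Those data held no split into array sets, so the test does not cover it. Lists got counts and medians, no test. Members, lists and the array set term were chosen with earlier results of these data known. Every measured member is named. Values by array were planned for called members, regulators and the extremes of each role, and were given for others after their values were seen. No sequence is shown, and the planned search of promoters for motifs was not run. Plots were made in Python 3.11.15 with matplotlib 3.10.9.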

Additional observations from a re-analysis of the deposited data

How the results depend on the processing

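Of 27 genes, 25 kept their sign in every alternative run. The exceptions were ELOVL6, at -0.07 with the array set term, and SCAP, at 0.12 with that term and between -0.14 and 0.10 when an array was left out (0.01 without basal 1, 0.10 without basal 2, 0.03 without TGFB1 2, 0.08 without TGFB1 3). Limma-trend, robust eBayes, a filter on level, all probe sets in the fit and a replicate block leave the log2 change as it is. Those runs could not change a sign. The count of 2 called genes was 2 with robust eBayes, arrays centred on their medians or quantile-normalized again, probe sets averaged, or genes below the 25th percentile or the median left out. It was 1 with limma-trend, 1 in the fit over all probe sets, 6 with the array set term, 4 at a threshold of 0.1, all lower, where 3.11% of all genes were called lower, and 0 at 0.01 (limma, 0 of all genes). Leaving out 1 array gave 0 to 11. It was 11 without basal 3, where 1537 of all genes passed at a limma adjusted p under 0.05. Without any other array it was 0, and 0 to 8 of all genes passed. In those other fits 1009 to 1358 of all genes had an unadjusted limma p under 0.05. With the replicate number as a block it was 0 by limma, and 0 of all genes passed (2038 of them had an unadjusted p under 0.05). The labels do not say that replicate numbers pair cultures, so the numbers were not taken to pair the arrays. Deviations of same-numbered arrays correlated at 0.67, -0.51 and 0.70. Such correlations were positive within an array set and negative across the sets, so they follow that split and cannot decide on pairing. The median of the sterol genes ran from -0.72 to -0.35 and that of the fatty acid genes from -0.76 to -0.21 over the alternatives.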
